A study of Mus musculus with 6 samples.

Results

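The suprachiasmatic nucleus (SCN) holds the master clock of the mammalian brain. It is a small paired nucleus above the optic chiasm, bordered by the preoptic area rostrally, the arcuate nucleus caudally and the paraventricular nucleus dorsally, so a dissected SCN also carries neurons of these areas. Such extra-SCN neurons were classified by the authors from marker genes of these areas, and the levels of clock genes, which are high in SCN neurons, were looked at afterwards. SCN neurons themselves are divided by their peptides, arginine vasopressin (Avp), vasoactive intestinal peptide (Vip), cholecystokinin (Cck) and neuromedin S (Nms), which act as signals between the neurons of the nucleus.

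Extra-SCN neurons are here the nuclei that carry this label in the cluster annotation deposited by the authors, 2152 of 22796 annotated nuclei. Single-nuclei RNA sequencing was performed on SCN tissue of C57BL6/J wild-type (WT) mice before birth at GD17.5 (GD, day of gestation) and after birth at PND2, PND10 and PND30 (PND, day after birth). Each stage was a pool of 10 animals, 1 male and 1 female from each of at least 5 undisturbed mothers kept in a light/dark cycle, and the tissue was collected early in the light phase. The GD17.5 and PND2 pools gave 1 library each. PND10 and PND30 gave 2 each, since the libraries of the later stages were prepared and sequenced again to recover more nuclei. The 2 libraries of a stage may therefore share their animals, and p-values between libraries then measure only the spread between these samples, which may be technical. The comparisons made are extra-SCN neurons against the Avp+, Vip+, Cck+ and Nms+ neurons of the same library, together called SCN neurons, and PND10 against PND30.

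By stage, 1664 extra-SCN nuclei were annotated at PND10 and 488 at PND30. By barcode, 421 and 1243 of them were placed in the PND10 libraries (replicates 1 and 2) and 108 and 377 in the PND30 libraries, whereas 3 could not be placed. In the same order they held 4990831, 8938677, 2093883 and 1705629 unique molecular identifiers (UMIs, counted RNA molecules). The libraries of a stage shared 3 barcodes at PND10 and 6 at PND30, and 24 extra-SCN nuclei had a barcode that was also listed at another stage. The count matrices list 32285 features by row number without gene names. Whether the extra-SCN nuclei carry the neuropeptides Npy and Gal, which were to serve as their markers, was therefore not analysed here, the label rests on the deposited annotation, and features are given below by their levels and, for a few of them, by their matrix row.

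Extra-SCN neurons made up a larger share of the neurons at PND10 than at PND30. They were 46.0% of 916 neuronal nuclei in PND10 replicate 1 (95% Clopper-Pearson interval 42.7% to 49.3%) and 33.5% of 3707 in replicate 2 (32.0% to 35.1%). At PND30 they were 16.4% of 658 neuronal nuclei in replicate 1 (13.7% to 19.5%) and 7.67% of 4916 in replicate 2 (6.94% to 8.45%). The stages did not overlap, and the libraries of each stage differed by more than their counting intervals. The PND10 mean was 39.7% ± 8.8 (SD, n = 2 libraries) and the PND30 mean was 12.0% ± 6.2 (SD, n = 2), a difference of -27.7 percentage points. A two-sided exact permutation test gave p = 0.33, the smallest value that 2 against 2 libraries allow. With all annotated nuclei as the denominator the difference was -18.2 percentage points. These are shares of recovered nuclei, and how much neighbouring tissue each dissection took cannot be told apart from the stage.

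For each extra-SCN neuron, PND10 replicates 1 and 2 held 1.13 and 1.96 SCN neurons. PND30 replicates 1 and 2 held 5.09 and 12.0. At the earlier stages no neuron carried the extra-SCN label, 0 of 4302 at GD17.5 and 0 of 4649 at PND2. The upper Clopper-Pearson limits on the share of neurons with this label were 0.0857% and 0.0793%. Most neurons of these stages were labelled early SCN neurons by the authors. Whether cells of the extra-SCN kind are among them was not tested, so the limits hold for the label and not for the cells. Intervals and these limits cover counting error only.

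**Figure D1:**
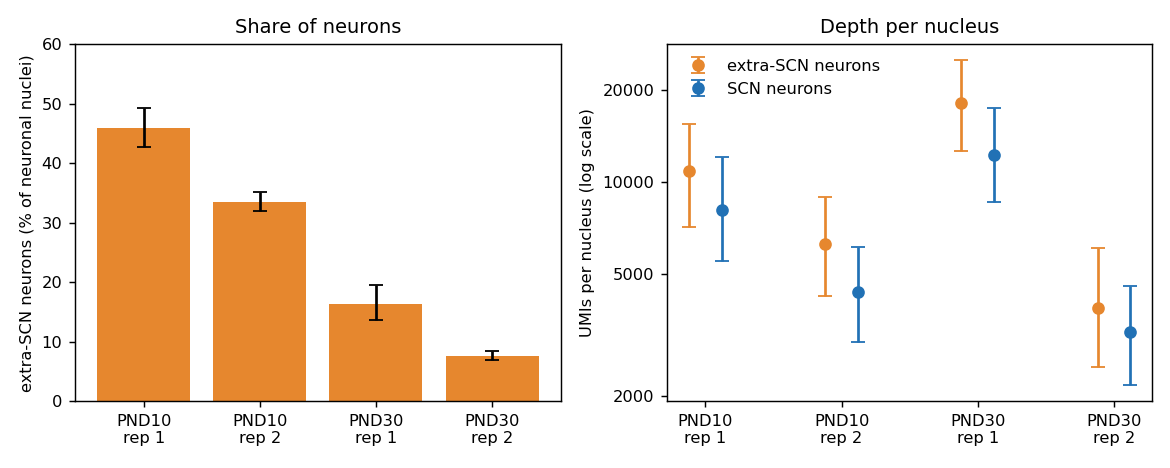
Left, extra-SCN neurons as a percentage of the neuronal nuclei of each PND10 and PND30 library, with 95% Clopper-Pearson intervals. Right, UMIs per nucleus on a log scale, median with the 25th to 75th percentile of nuclei, for extra-SCN neurons (orange) and SCN neurons (blue). Both PND10 bars stand above both PND30 bars, and the orange medians lie above the blue ones in all 4 libraries.

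Extra-SCN nuclei yielded more RNA molecules than SCN neurons of the same library. In PND10 replicate 1 the median was 10830 UMIs per extra-SCN nucleus and 8069 per SCN neuron, and in replicate 2 it was 6289 and 4365. In PND30 replicate 1 the medians were 18171.5 and 12271.5, and in replicate 2 they were 3857 and 3221. Extra-SCN nuclei were thus higher in 4 of 4 libraries, although the libraries themselves differed more in depth than the classes did. The ratio of medians was 1.34, 1.44, 1.48 and 1.20 in the same order, with a mean of 1.36 (log2 0.44 ± 0.14, SD, n = 4 libraries). A two-sided exact sign-flip permutation test gave p = 0.12, the smallest value that 4 libraries allow.

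Extra-SCN nuclei also spread their molecules over more features. At an equal depth of 1500 UMIs per nucleus, the median extra-SCN nucleus had 1059 and 1040 detected features at PND10 and 1047 and 1045 at PND30. SCN neurons had 1017 and 999 at PND10 and 994 and 997 at PND30. Every extra-SCN median lay above every SCN neuron median. The mean ratio was 1.05 (log2 0.065 ± 0.008, SD, n = 4 libraries), with p = 0.12 in the same exact permutation test. Of the extra-SCN nuclei, 92.0% to 98.1% per library reached 1500 UMIs and entered this comparison, against 90.8% to 99.1% of the SCN neurons.

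The most abundant features held less of the RNA of extra-SCN neurons. The 10 most abundant features took 6.78% and 7.18% of the UMIs of extra-SCN neurons at PND10 and 7.36% and 8.15% at PND30. In SCN neurons the 10 most abundant took 9.49%, 10.6%, 10.995% and 12.1% in the same order of libraries. The difference was -3.43 percentage points ± 0.54 (SD, n = 4 libraries). The single most abundant feature, which need not be the same one in both classes, held 1.91%, 1.81%, 1.70% and 2.17% in extra-SCN neurons and 2.78%, 3.86%, 3.97% and 5.49% in SCN neurons. Of the 10 most abundant features of extra-SCN neurons, 5 at PND10 and 6 at PND30 were also among the 10 of SCN neurons in each library. These values and those of the next paragraphs describe the clusters and carry no test, because the annotation was made from the same features.

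A limited set of features separated extra-SCN from SCN neurons in every library. Of 10542 features with a mean level of at least 10 CPM (UMIs of the feature scaled to a summed count of 1000000 per class and library), 216 (2.05%) were at least 2-fold higher in extra-SCN neurons in all 4 libraries and 158 (1.5%) at least 2-fold lower, on the scale of CPM plus 5. At 4-fold or more these were 34 features (0.323%) higher and 23 (0.218%) lower. Single libraries gave more, 586 to 705 higher and 334 to 489 lower at 2-fold. Against Avp+ neurons alone, 274 features were at least 2-fold higher and 156 lower in all 4 libraries, and against Vip+ neurons alone 219 were higher and 121 lower.

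The features with the largest separation had different distributions over nuclei. Matrix row 15351 was at 1763 and 1685 CPM in extra-SCN neurons at PND10 and at 1769 and 1440 CPM at PND30, whereas SCN neurons had 94.5, 136, 133 and 104 CPM. It was detected in 68.4% to 85.2% of extra-SCN nuclei per library and in 14.3% to 40.3% of SCN neurons, and mature astrocytes had 40.9 to 92.6 CPM. It was therefore a property of most extra-SCN nuclei at a steady level.

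Matrix row 26514 was at 206 and 118 CPM in extra-SCN neurons at PND10 and at 533 and 315 CPM at PND30, against 4.90 to 9.97 CPM in SCN neurons. It was detected in only 8.29% to 23.1% of extra-SCN nuclei, a high level in a minority. Among the features low in extra-SCN neurons, matrix row 3012 had 3.01, 7.38, 22.0 and 21.1 CPM in extra-SCN neurons and 233, 248, 421 and 499 CPM in SCN neurons. Matrix row 17105 had 13.4, 40.6, 15.3 and 75.05 CPM in extra-SCN neurons and 1115, 793, 627 and 680 CPM in SCN neurons.

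The 2 features low in extra-SCN neurons were spread differently over the SCN classes. In PND30 replicate 2, row 3012 was detected in 52.1% of Avp+, 82.0% of Cck+, 24.8% of Nms+ and 8.04% of Vip+ neurons, and in 8.49% of extra-SCN neurons. In the same library row 17105 was detected in 78.5% of Nms+, 62.5% of Vip+, 23.1% of Cck+ and 19.9% of Avp+ neurons, and in 22.0% of extra-SCN neurons. In PND10 replicate 1 extra-SCN neurons were below both SCN classes present in number, with row 3012 in 3.56% of extra-SCN, 10.0% of Vip+ and 66.5% of Avp+ nuclei and row 17105 in 10.5%, 63.8% and 43.9%.

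The SCN-high and extra-SCN-high features were then summed. The 23 features at least 4-fold higher in SCN neurons took 2.71%, 2.39%, 3.04% and 2.65% of the UMIs of SCN neurons and 0.231%, 0.339%, 0.422% and 0.384% of those of extra-SCN neurons (PND10 replicates 1 and 2, then PND30 replicates 1 and 2). Mature astrocytes, which lie outside the neuronal lineage, had 0.261%, 0.260%, 0.357% and 0.458%. The level in extra-SCN neurons was thus near that of a glial cell type in each library, a level at which free RNA in the droplets was not separated from expression.

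The 34 features at least 4-fold higher in extra-SCN neurons took 1.34%, 1.26%, 1.57% and 1.19% of their UMIs, against 0.106% to 0.145% in SCN neurons and 0.318% to 0.506% in mature astrocytes. In single nuclei, the extra-SCN-high features exceeded the SCN-high features in 98.3% and 97.7% of the extra-SCN nuclei at PND10 and in 87.7% and 88.5% at PND30. Among Avp+ and Vip+ neurons this was so in at most 4.13% of nuclei per library. The minority of extra-SCN nuclei in which SCN-high features prevailed was larger in both PND30 libraries than in both PND10 libraries.

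**Figure D2:**
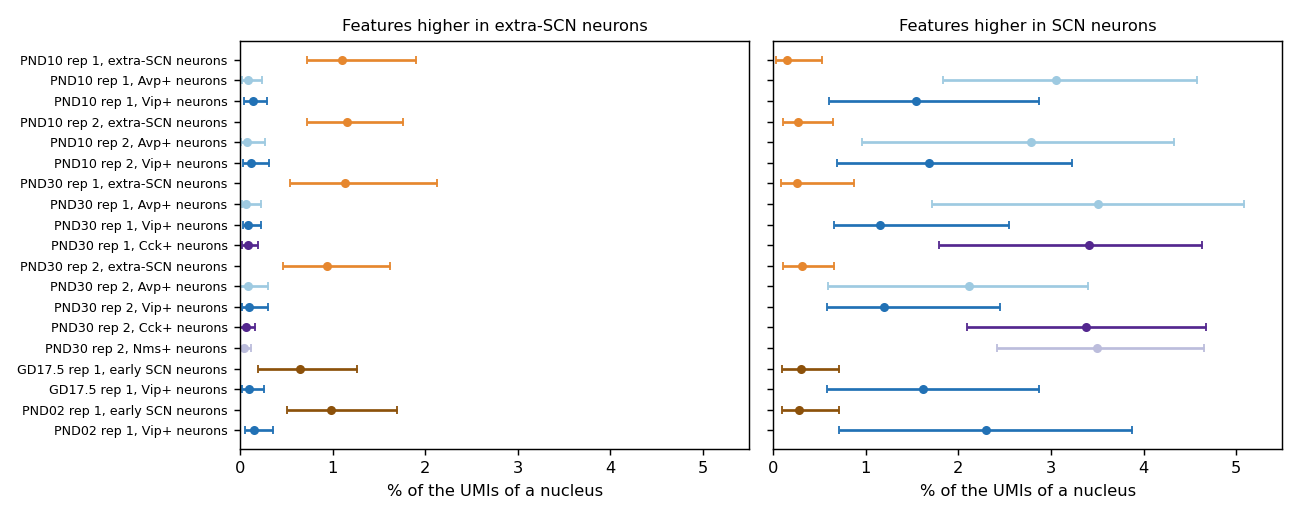
Percentage of the UMIs of a nucleus in the 34 features higher in extra-SCN neurons (left) and in the 23 features higher in SCN neurons (right), median with the 10th to 90th percentile of nuclei, for classes of each library. Extra-SCN neurons (orange) and the early SCN neurons of GD17.5 and PND2 (brown) share a high left and a low right value, whereas the Avp+, Vip+, Cck+ and Nms+ neurons show the opposite.

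In their summed profile, extra-SCN neurons were most similar to extra-SCN neurons of other libraries. After drawing 547317 UMIs per class and library, Pearson's r over the 32285 features on the scale of log2(CPM + 10) was 0.959 to 0.974 between extra-SCN neurons of different libraries. It was 0.947 to 0.957 with Vip+ neurons of the same library, 0.940 to 0.9496 with Avp+ neurons and 0.827 to 0.853 with mature astrocytes. The numbers of features at least 2-fold apart followed the same order, 356 to 950 between extra-SCN neurons of different libraries, 917 to 1204 against Vip+ neurons and 1184 to 1403 against Avp+ neurons. Features are not independent replicates, and these correlations are descriptions.

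Features high in other cell types were followed in place of named markers. Each was at least 8-fold higher in its cell type than in every neuron cluster, extra-SCN neurons included. A level far below that cell type was thus set by the choice of features, and whether nuclei were mixed was not tested. SCN neurons, which met the same condition, serve for comparison. The 58 features of mature astrocytes summed to 711 to 776 CPM in extra-SCN neurons, 716 to 1055 CPM in SCN neurons and 28963 to 33970 CPM in the astrocytes themselves. The 142 features of microglia summed to 362 to 514 CPM in extra-SCN neurons and 374 to 523 CPM in SCN neurons. The astrocyte list was lower in extra-SCN neurons in 4 of 4 libraries, at 722, 776, 714 and 711 CPM against 1055, 988, 753 and 716 CPM, with 12 to 30 of its 58 features higher there. The microglia list lay above SCN neurons in some libraries and below them in others.

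The 10 features of NG2 cells/OPCs (oligodendrocyte precursor cells) were higher in extra-SCN neurons, at 511, 844, 586 and 733 CPM against 252, 253, 184 and 200 CPM in SCN neurons and 9264 to 10012 CPM in the OPCs. The 50 features of mature oligodendrocytes summed to 1194 to 1424 CPM in extra-SCN neurons and 769 to 929 CPM in SCN neurons. Both sums were higher in extra-SCN neurons in 4 of 4 libraries. Of the members, 5 to 8 of the 10 OPC features and 21 to 30 of the 50 oligodendrocyte features were higher, so the sums rest on part of each list. The part of oligodendroglial RNA in the other differences was not tested.

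Extra-SCN nuclei lay mostly near extra-SCN nuclei of the other libraries. The annotation was made on the merged libraries from the same features, so these shares describe the label and do not test it. Nuclei were compared in 30 principal components at 1500 UMIs, with at most 106 nuclei per neuron class and library, and the 20 nearest neighbours of each extra-SCN nucleus were taken from the other 3 libraries. Extra-SCN neurons were 91.9% and 91.6% of the neighbours of PND10 replicates 1 and 2 and 83.0% and 87.3% of those of PND30 replicates 1 and 2, against 24.5% to 28.8% of the nuclei searched. The mean was 88.4% ± 4.2 (SD, n = 4 libraries).

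The other neighbours were few and differed between stages. For the PND10 libraries the next class was the unidentified neuronal cells, with 6.42% and 5.47% of neighbours, beside 1.92% and 1.34% of the nuclei searched. For PND30 replicate 1 it was Avp+ neurons, with 12.4% beside 25.9% of the nuclei searched. For PND30 replicate 2 it was Vip+ neurons, with 4.76% beside 28.8%. When neighbours were sought only in the other stage, 97.4% and 96.2% were extra-SCN neurons for PND10 and 77.4% and 80.4% for PND30. The nuclei searched differed, with 22.6% extra-SCN neurons at PND30 and 30.3% at PND10. Unidentified neuronal cells were present only among the PND10 nuclei searched. They took 6.60% and 6.84% of the neighbours of PND30 replicates 1 and 2, near their 6.01% of the nuclei searched. In turn, 25 unidentified neuronal cells of PND10 replicate 2 had 81.8% extra-SCN neighbours, beside 25% of the nuclei searched.

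**Figure D3:**
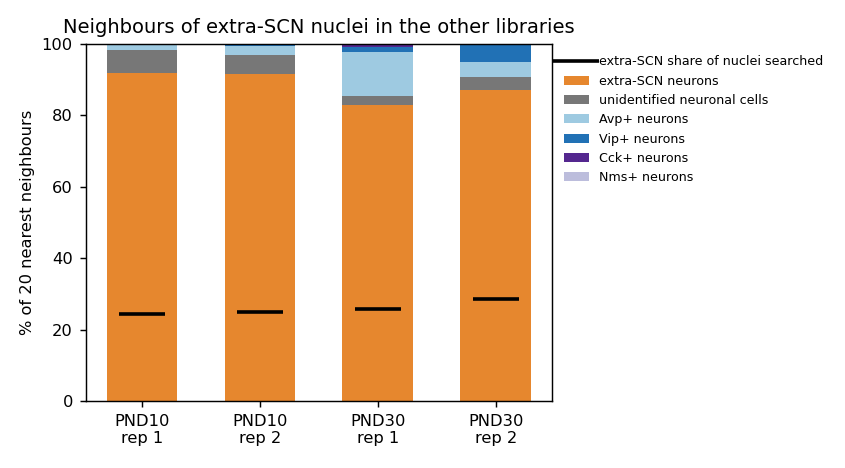
Classes of the 20 nearest neighbours of extra-SCN nuclei in the other libraries, as stacked percentages per library. The black marks give the share of extra-SCN neurons among the nuclei searched. The orange part lies between 83.0% and 91.9%, above the marks at 24.5% to 28.8%.

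The spread of extra-SCN neurons around their class mean was close to that of SCN neurons. Over 30 principal components with 106 nuclei per class and library, the mean squared distance was 133 and 123 in extra-SCN neurons at PND10 and 138 and 135 at PND30. For SCN neurons it was 126, 122, 128 and 120.1 in the same order. The ratio was 1.05, 1.00, 1.08 and 1.13, with a mean of 1.06 and p = 0.12 in the two-sided exact sign-flip permutation test (n = 4 libraries). It turned to 0.726 with 10 components. Without PND30 replicate 1 it was 1.05 with 106 nuclei per class and library and 0.938 with the 347 that the other libraries allow, so no direction is given. Against a single SCN class extra-SCN neurons were the more variable, with a ratio of 1.29 to Avp+ and 1.34 to Vip+ neurons.

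Extra-SCN neurons could be divided into 10 sub-clusters, defined in the 1210 nuclei of PND10 replicate 2 and transferred to the other libraries by the most similar mean. They are numbered and stay unnamed. No sub-cluster dominated in PND10 replicate 2, where they held 6.45% to 14.0% of the nuclei. Resolutions of 0.5 and 1.5 in place of 1 gave 7 and 13 sub-clusters.

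Sub-clusters 2, 3 and 10 carried features that recurred in each of the other libraries. Nuclei of those libraries had been assigned by similarity over variable features, which can include the features counted here. Recurrence is thus partly set by the assignment, and the counts are descriptions and no test. Of the 16 features at least 4-fold higher in sub-cluster 2 than in the other extra-SCN nuclei of PND10 replicate 2, 10, 14 and 14 were at least 2-fold higher in PND10 replicate 1 and PND30 replicates 1 and 2, where 0.994%, 1.69% and 1.54% of all features were. For sub-cluster 3 these were 8, 9 and 13 of 13 (0.753%, 1.07% and 1.64% of all features), and for sub-cluster 10 they were 11, 19 and 17 of 23 (0.765%, 2.38% and 4.18%). Sub-cluster 7 recovered 1, 25 and 28 of 30 (0.765%, 5.65% and 4.92%), so that its features recurred at PND30 and not in PND10 replicate 1. Sub-cluster 6 recovered 0 of 7 in each library (0.889%, 1.89% and 2.17% of all features). Of the others, sub-clusters 1, 5, 8 and 9 recovered 1 of 7, 0 of 6, 1 of 22 and 5 of 23 in PND10 replicate 1. They recovered 0, 2, 3 and 3 in PND30 replicate 1 and 5, 5, 8 and 14 in PND30 replicate 2. Of all features, 0.310% to 1.30%, 4.62% to 7.11% and 3.02% to 6.94% were at least 2-fold higher in them, in the same order. Sub-cluster 4 had a single feature at least 4-fold higher. Sub-cluster 10 had the highest share of extra-SCN-high features in every library, at 2.19%, 1.86%, 4.34% and 3.14% of UMIs.

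The shares of the sub-clusters differed between the PND10 and PND30 libraries. Sub-cluster 3 held 10.2% and 13.1% of the extra-SCN nuclei at PND10 and 27.4% and 23.9% at PND30. Sub-cluster 2 held 10.4% and 13.1% at PND10 and 17.9% and 17.6% at PND30, and sub-cluster 6 held 6.70% and 8.10% against 14.2% and 16.4%. These were the 3 sub-clusters with higher shares in both PND30 libraries. Sub-cluster 6, however, recovered 0 of its 7 features in each other library, so its number may not mark like nuclei there. In the alternative without centring given below, it held 34.0% and 8.10% at PND10 and 15.1% and 21.3% at PND30, which overlap.

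Sub-cluster 1 held 11.7% and 14.0% at PND10 and 4.72% and 4.32% at PND30, and sub-cluster 9 held 6.95% and 7.27% against 1.89% and 2.02%. Sub-clusters 4, 7 and 8 were also lower in both PND30 libraries, and sub-clusters 5 and 10 overlapped between the stages. In all, 8 of 10 sub-clusters did not overlap. An exact permutation test of 2 against 2 libraries cannot go below p = 0.33, so a lack of overlap is common by chance alone. These differences were not tested. The sub-clusters were also defined in a PND10 library, and the part of this in the differences was not tested. Without centring on the mean of each library, an alternative chosen after seeing the data, 6 of 10 did not overlap and sub-clusters 6 and 7 were not among them. The shares of a library are not independent of each other, and the small sub-clusters of PND30 replicate 1 rest on as few as 2 nuclei.

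**Figure D4:**
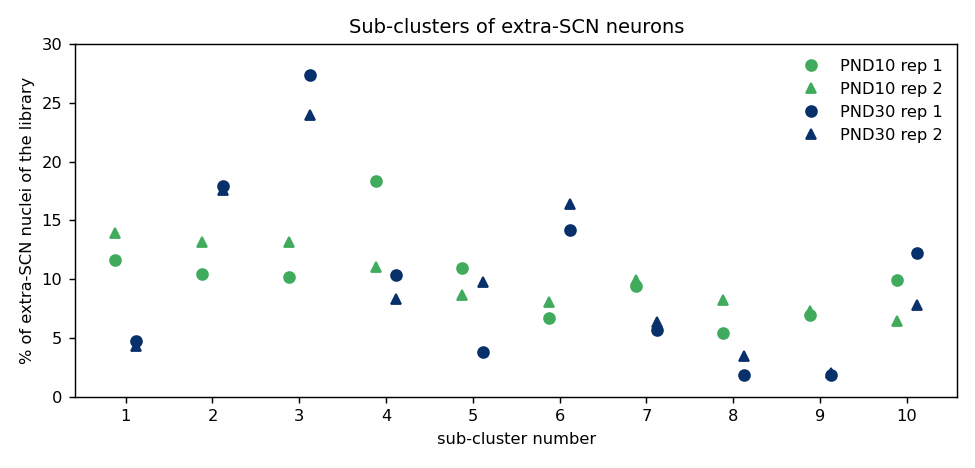
Share of the extra-SCN nuclei of each library in 10 sub-clusters, green for PND10 and blue for PND30, with a circle for replicate 1 and a triangle for replicate 2. Sub-clusters 2, 3 and 6 lie higher at PND30 and sub-clusters 1, 4, 7, 8 and 9 lower, without overlap.

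Few features passed the test between PND10 and PND30 within extra-SCN neurons. In edgeR's quasi-likelihood test on UMIs summed per library, 1 of 13834 features (0.00723%) had a Benjamini-Hochberg adjusted p under 0.05, and 2117 had an unadjusted p under 0.05. DESeq2 called 243. The count changed widely when a single library was left out, which leaves 1 library in its stage, and the cause was not tested. In SCN neurons of the same libraries the test called 316 of 16914 features (1.87%), 123 higher (0.727%) and 193 lower (1.14%) at PND30. It called 13 of 14610 in Avp+ neurons alone and 826 of 12484 in Vip+ neurons alone. The SCN neurons held 20 Cck+ and 5 Nms+ nuclei in PND10 replicate 2 and 1743 and 657 in PND30 replicate 2. Their summed UMIs at PND30 were 7844195 and 16600197, more than in extra-SCN neurons. The part of make-up and depth in these counts was not tested.

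The called feature was matrix row 30701, which was lower at PND30. In extra-SCN neurons it had 69.7 and 47.4 CPM at PND10 and 1.43 and 1.76 CPM at PND30, from 348, 424, 3 and 3 UMIs. It was detected in 26.1% and 18.8% of the extra-SCN nuclei at PND10 and in 2.78% and 0.796% at PND30. The log2 fold change was -5.18 (SE 0.38, edgeR adjusted p = 0.0305). In SCN neurons it had 6.501 and 6.65 CPM at PND10 and 1.15 and 1.20 CPM at PND30, with a log2 fold change of -2.44 (edgeR adjusted p = 0.0273). The difference between these changes did not pass the test, with a log2 estimate of -2.69 (edgeR adjusted p = 0.180). Thinned to 1500 UMIs per nucleus, the feature's own log2 fold change in extra-SCN neurons was -3.59 (edgeR adjusted p = 0.107), and in the fit with a replicate block it was -5.19 (edgeR adjusted p = 0.0505).

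The change from PND10 to PND30 itself differed between extra-SCN and SCN neurons for 1 of 16625 features (0.00602%), with the library as a block, and 1507 had an unadjusted p under 0.05. DESeq2 called 44. Without PND10 replicates 1 and 2 the counts were 310 and 1127, and without PND30 replicates 1 and 2 they were 13 and 12. The feature was matrix row 16658. It had 314 and 104 CPM in extra-SCN neurons at PND10 and 22.9 and 41.6 CPM at PND30, whereas SCN neurons had 37.1 and 15.0 CPM at PND10 and 24.7 and 33.9 CPM at PND30.

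The extra-SCN level of row 16658 was thus above that of the summed SCN neurons in both PND10 libraries and near it at PND30. At PND30 Avp+ neurons alone had 22.5 and 8.98 CPM and Vip+ neurons alone 8.94 and 5.62 CPM. In PND30 replicate 2 both classes lay below the extra-SCN level. Cck+ and Nms+ neurons, few at PND10, are part of the SCN sum at PND30. The part of this make-up in the difference was not tested. The log2 difference of the changes was -2.88 (SE 0.21, edgeR adjusted p = 0.0101). Neither class alone passed, with log2 fold changes of -2.70 in extra-SCN neurons (edgeR adjusted p = 0.128) and 0.28 in SCN neurons (edgeR adjusted p = 0.747). Against Avp+ neurons alone the difference was -1.73 (edgeR adjusted p = 0.528), and against Vip+ neurons alone it was -1.98 (edgeR adjusted p = 0.250).

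**Figure D5:**
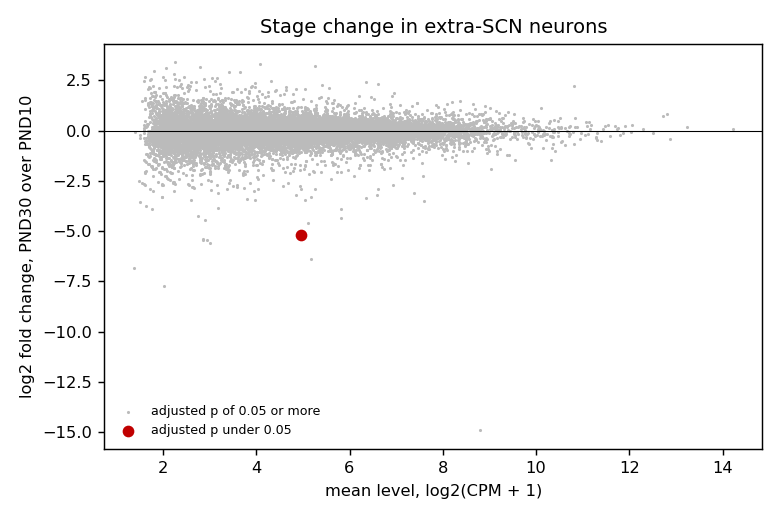
Log2 fold change from PND10 to PND30 in extra-SCN neurons (negative values are lower at PND30) against the mean level, log2(CPM + 1), for the 13834 features tested. The red point is row 30701, the only feature with an edgeR adjusted p under 0.05, and the lowest point is row 9814.

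The lowest point of that plot, matrix row 9814, was chosen after its values were seen. It separated the 2 libraries of PND10 and not only the stages. In extra-SCN neurons it had 1750 CPM in PND10 replicate 1 and 23.3 CPM in replicate 2, and 0 UMIs in both PND30 libraries. It was detected in 67.9% of the extra-SCN nuclei of PND10 replicate 1, and its highest nucleus held 2.37% of these UMIs, so that the level did not come from a few nuclei. In PND10 replicate 2 it was detected in 1.77% of them, and the highest nucleus held 51.4%. SCN neurons differed in the same direction, with 69.1 and 2.41 CPM. The stage change had an edgeR adjusted p of 0.175.

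The features that define the contrast between the classes were also followed across the stages. None of the 34 extra-SCN-high features passed the stage test in extra-SCN neurons, and their median log2 fold change was -0.21, beside -0.01 over all features tested. Of the 23 SCN-high features 22 could be tested in extra-SCN neurons. None passed, 19 of 22 estimates were positive and the median was 1.08. In SCN neurons the same 23 features had a median of 0.30, with 6 higher and 1 lower at PND30, 30.4% of the list beside 1.87% of all features. The difference of the changes between the classes had a median of 0.28, and none of the 23 passed. These lists were chosen on the same libraries, so the share called in them is no test. The SCN sum also held more Cck+ and Nms+ neurons at PND30. In PND30 replicate 2 the SCN-high features took a median of 3.37% and 3.49% of their UMIs, against 2.12% in Avp+ and 1.19% in Vip+ neurons. In PND30 replicate 1 Cck+ neurons had 3.41% and Avp+ neurons 3.51%. The part of make-up in these changes was not tested.

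The counts of GD17.5 and PND2 were not used to choose these features. The annotation, however, was made on the merged libraries, with both of these stages included. The values below thus describe the labels and do not test them. The main neuron class of these stages, which the authors named early SCN neurons, numbered 4048 nuclei at GD17.5 and 3315 at PND2. The extra-SCN-high features took 0.785% of their UMIs at GD17.5 and 1.10% at PND2, and the SCN-high features 0.382% and 0.370%. Vip+ neurons of the same libraries had 0.128% and 0.191% of extra-SCN-high and 1.73% and 2.33% of SCN-high features. In single nuclei, extra-SCN-high exceeded SCN-high features in 75.02% and 90.3% of early SCN neurons and in 2.12% and 2.79% of Vip+ neurons. On these lists the early SCN neurons were nearer to extra-SCN neurons than to the Vip+ neurons of their own library.

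The same order was found over all features. The summed profile of early SCN neurons at GD17.5 correlated with extra-SCN neurons of PND10 at r = 0.945 and 0.953, with Vip+ neurons at 0.936 and 0.940 and with Avp+ neurons at 0.926 and 0.927. At PND2 these were 0.961 and 0.963, 0.949 and 0.951, and 0.936 and 0.937. The rows named in the stage tests were present as well. Row 30701 had 63.7 and 66.9 CPM and row 16658 had 325 and 172 CPM in early SCN neurons of GD17.5 and PND2.

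Among PND10 nuclei, 82.3% and 82.5% of the nearest neighbours of 1000 early SCN neurons of each stage were extra-SCN neurons, which were 30.3% of the nuclei searched, against 1.27% and 2.02% for Vip+ neurons. Nuclei of other lineages also fell there, since extra-SCN neurons were 54.2% and 56.3% of the neighbours of mature astrocytes of the PND30 libraries and 91.0% and 84.6% of those of OPCs. The neighbour shares alone are thus no measure of likeness for nuclei outside the classes searched. With 1 library at each early stage there is no replicate check of these values.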

How the data were processed

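The authors aligned and counted reads with Cell Ranger 5.0.1 on mm10 and deposited raw, unnormalized UMI counts of each barcode, and a cluster table made with Seurat 4. Per their methods, nuclei with few UMIs, too few or many genes, high mitochondrial or ribosomal content or a high doublet score had been removed. Doublets were not called again. The table gives stages by a suffix, read from barcode matches, and nuclei were placed in libraries by barcode, with 6 of 22796 not placed. The placed nuclei held 10921890 to 31389145 UMIs per library.

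UMIs of extra-SCN and SCN neurons were summed per library and tested with edgeR 4.0.16 (quasi-likelihood, TMM, filterByExpr, Benjamini-Hochberg) in R 4.3.3, and DESeq2 1.42.0 was an alternative. For spread, neighbours and sub-clusters, nuclei were thinned to 1500 UMIs, scaled to 10000, log-transformed and reduced to principal components of 2000 variable features (30 components, 20 for sub-clusters), with Leiden clustering (leidenalg 0.10.2, Python 3.11.15). Single values were tested by exact permutation over libraries. Lists of other cell types held features at least 8-fold higher there than in every neuron cluster and other listed class.

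On simulated counts the stage test in extra-SCN neurons recovered 82% of 200 features changed by 2 on the log2 scale among 13514, with 6 false calls. The interaction recovered 64% of 200 among 16131, with 6 false calls. The unchanged features had a single mean over all libraries and the trended dispersion. Features that vary more than the trend and shifts of single libraries were not simulated. The recovery in the measured counts is therefore not given by these values.

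Rows were named by a rule, at most 2 in each direction per comparison, those with the largest change among features past the threshold whose libraries did not overlap, or with the largest smallest ratio over the 4 libraries. Members and lists were chosen with earlier results of these data known. The profiles of the early stages, the queries of other lineages and row 9814 were added after values had been seen. The alternatives changed the denominator, reference class, depth, components, features, neighbours, normalization, filter and block, or left out 1 library.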

Additional observations from a re-analysis of the deposited data

Results flagged for a closer look

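One feature was marked because its change from PND10 to PND30 differed between extra-SCN and SCN neurons in a test of the difference itself. Matrix row 16658 had a log2 difference of -2.88 (edgeR adjusted p = 0.0101) against the summed SCN neurons, whose make-up differed between the stages. Its highest library was PND10 replicate 1, with 314 CPM in extra-SCN neurons, and the difference ranged from -3.09 to -2.73 when single libraries were left out. With equal numbers of nuclei per library and class it was -2.02, with an edgeR adjusted p of 0.0829. Groups of 2 libraries are too small for a check of single outlying samples.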

How the results depend on the processing

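The difference in the share of extra-SCN neurons was -18.2 percentage points over all annotated nuclei and ranged from -33.9 to -21.5 when single libraries were left out. The ratios of UMIs (1.32 to 1.42 with single libraries left out) and of features at equal depth (1.04 to 1.05) and the share of the 10 most abundant features (-3.68 to -3.25 percentage points) moved by less than the spread between libraries under every alternative run. The share of extra-SCN neighbours ranged from 84.2% to 90.9% with single libraries left out, and was 85.8% without PND30 replicate 1 at the 106 nuclei of the reported value, a setting added after seeing the data.

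The counts of calls depended on the processing. Between PND10 and PND30 in extra-SCN neurons, 1 feature was called, against 243 with DESeq2, 1100 without a filter on low counts, 71 with equal numbers of nuclei and 2 at 1500 UMIs per nucleus. Single libraries left out gave 0 to 1062 calls. Without PND30 replicates 1 and 2, edgeR gave 0 calls with 1315 and 1763 features at an unadjusted p under 0.05. For the difference between classes, 1 call became 44 with DESeq2, 527 without the filter, 98 against Vip+ neurons, 23 with equal numbers of nuclei, and 0 in edgeR against Avp+ neurons (1235 at an unadjusted p under 0.05). Single libraries left out gave 12 to 1127. Where a stage kept 1 library, it was assumed to vary like the other stage. The causes were not tested.

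The replicate number shared by the stages did not pair the libraries by the check made, with a correlation of same-numbered deviations of -0.0218 over 13834 features. With the replicate block, the stage test gave 0 calls in edgeR (1966 at an unadjusted p under 0.05) and the difference between classes gave 101.

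The ratio of spreads was 0.726 with 10 components, 0.9996 at 3000 UMIs, 1.29 against Avp+ and 1.34 against Vip+ neurons, and 0.938 to 1.11 with single libraries left out. The 0.938, without PND30 replicate 1, also drew 347 in place of 106 nuclei, and at 106 the ratio was 1.05, a setting added after seeing the data. The other causes were not tested. PND30 replicate 1 has the fewest extra-SCN nuclei (108) and PND30 replicate 2 the fewest summed UMIs (1705629).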
